A study of Mus musculus with 25 samples.

Results

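Transcripts of 9 genes that write, read or erase DNA methylation were measured in the CA1 region: the writers Dnmt1, Dnmt3a and Dnmt3b, the readers Mbd1, Mbd2, Mbd3 and Mbd4, and the erasers Tet1 and Tet3. The genes were chosen with earlier results of these data known. Their probe sets were taken by annotation and not by any measured value. They were every probe set that the annotation of the Mouse 430_2.0 array named for one of these genes alone. A probe set is a group of short probes whose combined brightness, the signal, stands for the level of a transcript. The rule gave 26 of the 45101 probe sets on the array and 9 of 18193 annotated genes. Writers held 10 probe sets, readers 11 and erasers 5. CA1, the output field of the hippocampus, was profiled with 1 array per animal in females of the inbred strain Balb c/J. The 11 handled mice had been taken from their mothers for 15 min each morning on postnatal days 1 to 14, and the 14 non-handled mice had been left undisturbed. Behavior was tested at 8 weeks of age in both groups, and tissue was taken 2 weeks later. RNA came from Qiagen RNA/DNA columns in 7 handled and 10 non-handled mice and from Trizol in 4 handled and 4 non-handled mice, and all RNA was amplified in a double round. Extraction is given in the labels by position in the list of samples. Handling was applied to whole litters. The sources used here do not name each animal's litter, so p-values that treat mice as independent may be too small.

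Methyl groups on cytosine are placed mostly where a cytosine is followed by a guanine, a pair written CG. Dnmt1 copies the mark onto the new strand after DNA replication, whereas Dnmt3a and Dnmt3b place it on DNA that lacked it. Dnmt3a is known as the main such enzyme of neurons after birth. Proteins with a methyl-CpG binding domain read the mark and recruit repressive complexes, and Tet enzymes oxidise methylcytosine as the first step of its removal. In bulk CA1 tissue, fewer cells of a type and less RNA per cell cannot be told apart.

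Median signal per array ran from 79.6 to 141.9 in handled and from 94.7 to 162.8 in non-handled mice, and the mean correlation of an array with the others was at least 0.848. With columns, the median ran from 79.6 to 95.9 in handled and from 94.7 to 135.2 in non-handled mice. The SD of log2 signal within an array ran there from 2.82 to 2.97 in handled and from 2.45 to 2.80 in non-handled mice, without overlap. The part of this in the member differences with columns alone was not tested. Of 8 genes listed as markers of CA1 pyramidal neurons, 7 were measured and all 7 lay in the upper 50% by mean signal. So did 11515 of 18193 genes, each by its brightest probe set. The same held for all measured interneuron (6), oligodendrocyte (6), astrocyte (6) and microglia (7) markers. It also held for 5 of 6 CA3 and 3 of 6 dentate granule markers, so this count does not set CA1 apart. Differences were tested with limma on log2 signal, with handling and extraction as terms, and called where p, adjusted by Benjamini-Hochberg over 45037 probe sets, was under 0.05. The median log2 difference between handled and non-handled mice was -0.15 over all probe sets and -0.02 over the upper 50% by mean signal. Each array carries only a single scaling factor, so such shifts remain in the values given here. They were not the same for dim and bright probe sets. With quantile normalization or a common mean and variance, the median over all probe sets moved by 0.17. The share of handling calls that were higher in handled mice was then 45.3% and 48.3%, against 31.1% without them.

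Every one of the 9 genes except Dnmt3b and Tet3 had at least 1 probe set in the upper 50% by mean signal in CA1, and 15 of 26 probe sets were in it. Signal was above the median of the array in every mouse for 9 probe sets, in some mice for 12 and in no mouse for 5. The 9 were 2 probe sets of Dnmt1, 4 of Dnmt3a, 2 of Mbd1 and 1 of Mbd2. The 2 probe sets of Dnmt3b and the single one of Tet3 were in the lower 50%, and their differences carry wide intervals. Probe sets differ in how well they hybridise, and the levels of different probe sets were therefore not set against each other.

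**Figure D1:**
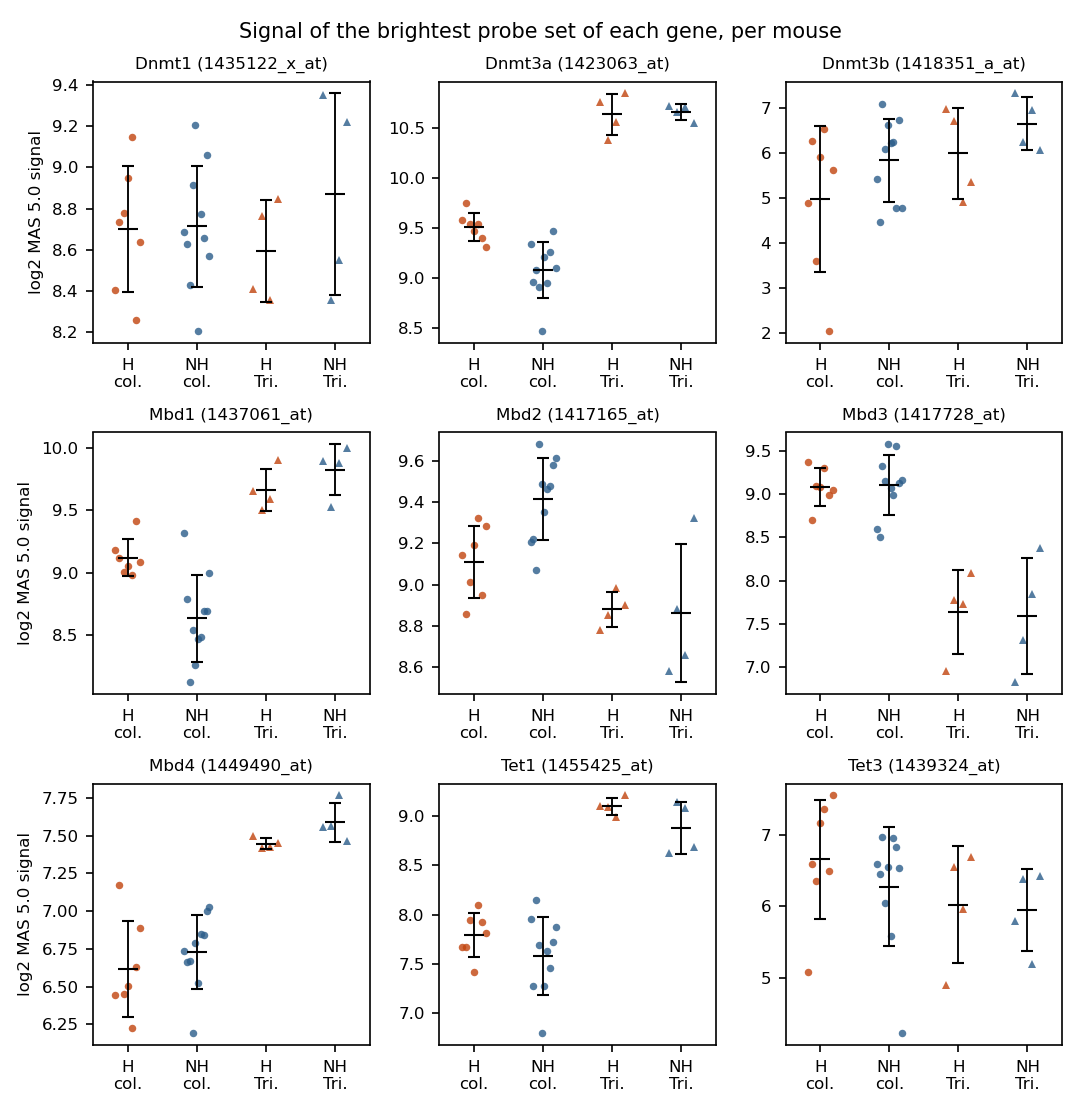
Log2 MAS 5.0 signal (y axis) of the probe set with the highest mean signal for each of the 9 genes. Each point is 1 mouse, H is handled and NH non-handled, circles (col.) are RNA from columns and triangles (Tri.) RNA from Trizol, and bars give mean ± SD of 7, 10, 4 and 4 mice. Axes differ between panels and do not start at 0; Dnmt3a, Mbd1, Mbd3, Mbd4 and Tet1 separate by extraction method more than by handling.

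No member probe set passed the test for handling. The count was 0 of 26 by limma, against 11.5% of all probe sets tested, of which 3.58% were higher and 7.93% lower in handled mice. At an unadjusted p under 0.05 the count was 5 of 26, against 27.9% of all probe sets. These 5 were Dnmt3a 1423063_at, Tet1 1429448_s_at and Mbd1 1437061_at with values above 0, and Mbd1 1430837_a_at and Mbd2 1417165_at with values below 0. The log2 difference was above 0 for 11 members and below 0 for 15, with a median of -0.02, while 16077 of all 45037 probe sets were above 0. Quantile normalization gave 19 above and 7 below with a median of 0.10, and a common mean and variance 20 above and 6 below with a median of 0.12. Over all 45037 probe sets, 23643 and 23699 were then above 0. The split between directions thus depends on scaling, for the members and for all probe sets. By role, the median was -0.07 for the 10 probe sets of writers, -0.12 for the 11 of readers and 0.28 for the 5 of erasers. With quantile normalization these medians were 0.03, 0.09 and 0.56, and the medians of writers and readers changed sign. Probe sets of the same gene were counted singly here. Of the 5 of erasers, 4 are of Tet1, and the median of 0.28 was the value of the dim Tet3 probe set (95% interval -0.36 to 0.93). A probe set name ending in s_at or x_at marks probes that can also match other transcripts.

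**Figure D2:**
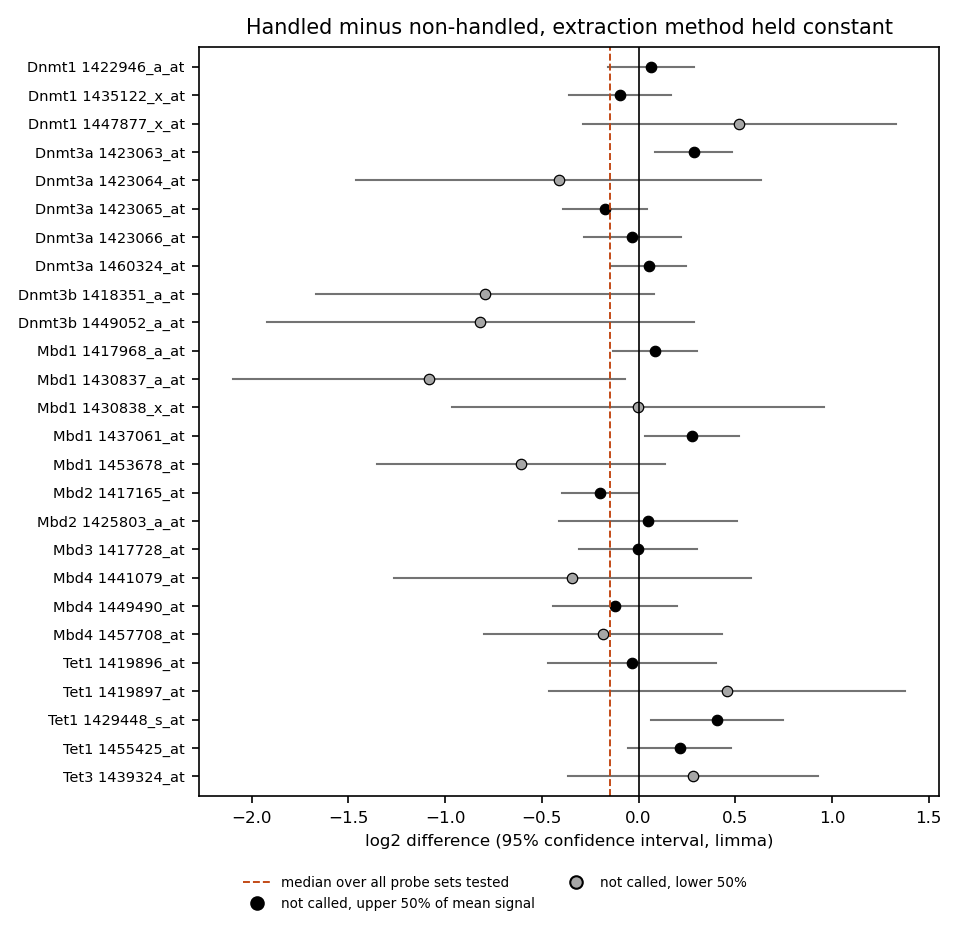
Difference in log2 signal between handled and non-handled mice (x axis) for each of the 26 member probe sets, with extraction method held constant. Points are limma estimates and lines their 95% confidence intervals, dark points mark the upper 50% by mean signal, and the dashed line is the median over all probe sets, -0.15. None of the 26 was called, and the narrowest intervals belong to the bright probe sets of Dnmt1, Dnmt3a, Mbd1 and Mbd2.

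Dnmt3a came closest to a call among the writers. On probe set 1423063_at the signal in handled mice with RNA from columns had a lowest value of 637, a median of 744 and a highest of 863, against 355, 546 and 711 in non-handled mice with RNA from columns. All 7 handled mice of this set lay above the non-handled median and 4 lay above every non-handled mouse, although the groups overlapped. In the Trizol set the signal was 1731, 1335, 1509 and 1838 in handled mice, against 1687, 1619, 1678 and 1493 in non-handled mice. Here the handled mice held both the highest and the lowest value. Over all mice the log2 difference was 0.29 (standard error 0.10, 95% interval 0.09 to 0.48), a fold of 1.22, at an adjusted p of 0.053 by limma. Dnmt3a 1423063_at was called with array weights and among the probe sets of the upper 50% alone, where 13.2% and 19.2% of all probe sets tested were called. With columns alone, the difference was 0.44 and passed at an adjusted p of 0.019, and with Trizol alone it was -0.02 at an adjusted p of 0.98. Whether handling acted differently in the 2 sets was tested with an interaction term, which gave 0.46 (standard error 0.19) at an adjusted p of 0.61. A difference between the 2 sets was therefore not shown. The non-handled mouse with the lowest signal, NH162, also had the highest 3' to 5' ratio of Actb, a measure of RNA integrity, at a log2 value of 3.24. Without it the difference over all mice was 0.24 at an adjusted p of 0.067.

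The other probe sets of Dnmt3a did not move with 1423063_at. Probe set 1423065_at had a lowest signal of 219.8, a median of 271 and a highest of 333 in handled mice with RNA from columns, against 306, 344 and 413 in non-handled mice. None of these 7 handled mice reached the non-handled median and 5 lay below every non-handled mouse. With Trizol, its signal was 519, 769, 592 and 801 in handled mice, against 503, 619, 527 and 757 in non-handled mice. These Trizol groups overlapped, with 3 of 4 handled mice above the non-handled median. Its log2 difference was -0.33 with columns alone (adjusted p = 0.065) and -0.18 over all mice (adjusted p = 0.29). The remaining 3 had differences of 0.05 for 1460324_at, -0.03 for 1423066_at and -0.41 for the dim 1423064_at, with adjusted p from 0.64 to 0.89. All 5 probe sets were designed from 1 sequence record, and the difference between 1423063_at and 1423065_at was not tested.

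**Figure D3:**
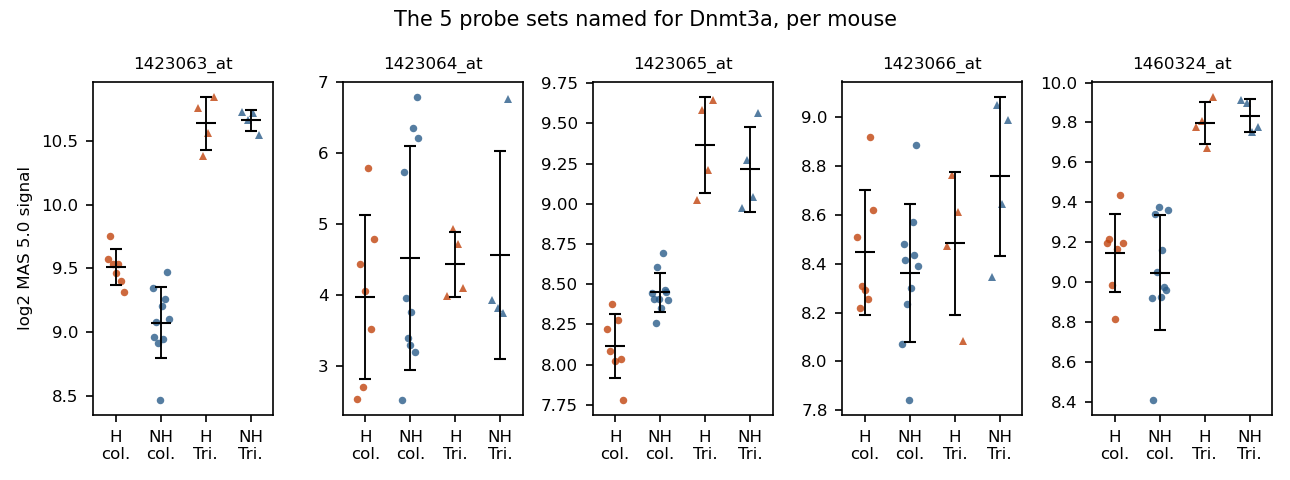
Log2 MAS 5.0 signal (y axis) of the 5 probe sets named for Dnmt3a, 1 point per mouse, with mean ± SD for handled (H) and non-handled (NH) mice and for RNA from columns (col., circles) and Trizol (Tri., triangles). With columns, handled mice lie high on 1423063_at and low on 1423065_at, and with Trizol the groups overlap on all 5 probe sets. Axes differ between panels and do not start at 0.

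Dnmt3a has several transcription starts, and the files do not say which transcript each of its probe sets measures. Windows around its first and last start are shown because they differ in CG content, the substrate of the enzymes described here. The window of a start between them overlaps the first and is not printed. Each runs from 250 bases before to 50 bases after a start on the plus strand of build GRCm38.p6, as given by RefSeq, with every CG in capitals. The first lies at chr12:3806730-3807029 and the second at chr12:3891494-3891793.
Dnmt3a first start: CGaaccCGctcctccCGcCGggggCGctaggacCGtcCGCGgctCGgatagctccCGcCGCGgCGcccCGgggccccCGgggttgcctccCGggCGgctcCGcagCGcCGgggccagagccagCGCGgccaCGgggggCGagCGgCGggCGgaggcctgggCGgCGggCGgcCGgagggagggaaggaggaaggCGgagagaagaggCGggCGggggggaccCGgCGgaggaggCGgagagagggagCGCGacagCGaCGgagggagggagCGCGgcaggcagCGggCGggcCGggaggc
Dnmt3a last start: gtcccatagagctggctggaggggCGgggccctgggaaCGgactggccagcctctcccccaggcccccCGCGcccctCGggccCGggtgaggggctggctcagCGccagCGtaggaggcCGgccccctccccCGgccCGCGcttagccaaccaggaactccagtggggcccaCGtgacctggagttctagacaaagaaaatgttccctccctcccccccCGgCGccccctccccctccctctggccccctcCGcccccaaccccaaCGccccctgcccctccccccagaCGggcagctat
The first window held 46 CG pairs, the overlapping one 47 and the last 18. The motif searched was CG, which reads the same on both strands. A window held a median of 7 CG over 32851 RefSeq windows, and 94.6% held at least 1. At least 46 were found in 1.65% of windows, at least 47 in 1.44% and at least 18 in 29.7%. Of 11 windows of 7 member genes examined, 10 were above the median; Dnmt3b had 30, Mbd4 25, Mbd3 22, Tet3 22 and Tet1 17 CG, and the 3 windows of Dnmt1 had 2, 12 and 33. Methylation itself was not measured in these arrays.

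Dnmt1, the copying enzyme, was measured by 3 probe sets, none of them called. On 1435122_x_at, its brightest probe set, the lowest, median and highest signals were 306, 426 and 567 in handled mice with RNA from columns, against 295, 408 and 591 in non-handled mice. With Trizol the values were 340.0, 434, 328 and 461 in handled mice, against 653, 328, 375 and 596 in non-handled mice. The groups overlapped in both sets, and the 2 highest Trizol values were from non-handled mice. Handled minus non-handled came to -0.10 on the log2 scale (95% interval -0.36 to 0.17, adjusted p = 0.66). Probe set 1422946_a_at gave 0.07 (adjusted p = 0.74) and the dim 1447877_x_at 0.52 (adjusted p = 0.41).

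Dnmt3b, which acts mainly in early embryos, was dim. On 1418351_a_at the lowest, median and highest signals were 4.14, 49.1 and 92.9 in handled mice with RNA from columns, against 22.2, 71.2 and 137 in non-handled mice. With Trizol the values were 125, 105, 30.1 and 41.2 in handled mice, against 160.1, 76.1, 124 and 67.4 in non-handled mice. In both sets the lowest mice were handled ones, and the groups overlapped. On the log2 scale the difference was -0.79 (standard error 0.43, 95% interval -1.67 to 0.08) at an adjusted p of 0.23, and the second probe set, 1449052_a_at, gave -0.82 at an adjusted p of 0.33. These sizes depended on scaling and on 1 mouse: they were -0.47 and -0.38 with quantile normalization, and the first was -0.47 without the handled mouse H118.

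Among the readers, Mbd1, which binds methylated CG and represses transcription, had probe sets on both sides of 0. On 1437061_at, its brightest, the lowest, median and highest signals were 505, 544 and 682 in handled mice with RNA from columns, against 278, 392 and 639 in non-handled mice. All 7 handled mice lay above the non-handled median, and the highest non-handled mouse stood above 6 of them. With Trizol the values were 807, 726, 772 and 958 in handled mice, against 954, 739, 941 and 1024 in non-handled mice, where 1 of 4 handled mice was above the non-handled median. Limma gave a log2 difference of 0.27 over all mice (standard error 0.12, adjusted p = 0.13), 0.49 with columns alone (adjusted p = 0.025) and -0.16 with Trizol alone (adjusted p = 0.87). The interaction of 0.65 had the lowest adjusted p of any member, 0.53.

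On 1430837_a_at, a dim probe set of Mbd1, the lowest, median and highest signals were 3.10, 4.97 and 17.9 in handled mice with RNA from columns, against 5.39, 10.4 and 96.1 in non-handled mice. With Trizol they were 92.3, 73.2, 56.8 and 32.6 in handled mice, against 61.3, 95.04, 22.6 and 106 in non-handled mice. With columns 5 of 7 handled mice lay below every non-handled mouse, while the Trizol groups were mixed. Its signal was above the array median in no mouse. The estimated log2 difference was -1.08 (standard error 0.50, adjusted p = 0.15), and with quantile normalization it was -0.65. The remaining 3 probe sets of Mbd1 had differences from -0.61 to 0.08.

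Mbd2, a reader that recruits the NuRD repressor complex, had a difference below 0 over all mice on its bright probe set. That difference was -0.05 from the median of all probe sets, which was -0.15. The median of the upper 50% by mean signal, where this probe set lies, was -0.02. On 1417165_at the lowest, median and highest signals were 464, 567 and 640.3 in handled mice with RNA from columns, against 537, 710.4 and 821 in non-handled mice. With Trizol the values were 439.8, 462, 506 and 479 in handled mice, against 383, 471, 404 and 641 in non-handled mice. With columns no handled mouse reached the non-handled median and 3 of 7 lay below every non-handled mouse, whereas all 4 handled mice were above the non-handled median with Trizol. Limma gave a log2 difference of -0.20 (standard error 0.10, adjusted p = 0.17) over all mice, -0.31 (adjusted p = 0.060) with columns alone and 0.02 (adjusted p = 0.99) with Trizol alone. Its second probe set, 1425803_a_at, gave 0.05 (adjusted p = 0.92).

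Mbd3 is a subunit of NuRD that binds methylated DNA poorly in mammals. Its lowest, median and highest signals were 416, 542 and 661 in handled mice with RNA from columns, against 364, 563 and 762 in non-handled mice. With Trizol they were 124, 218, 212 and 272 in handled mice, against 113.4, 159.6, 229.8 and 331 in non-handled mice. The non-handled mice held both ends of the range in each set. The log2 difference was -0.0011 (95% interval -0.31 to 0.30, adjusted p = 0.997).

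Mbd4 is a glycosylase that removes thymine mispaired at a CG. Its signal on 1449490_at had a lowest value of 74.9, a median of 90.8 and a highest of 144.2 in handled mice with RNA from columns, against 73.1, 108.6 and 130.5 in non-handled mice. With Trizol it was 181, 171, 172 and 175 in handled mice, against 188, 189, 218 and 177 in non-handled mice. With Trizol 3 of 4 handled mice lay below every non-handled mouse, and with columns the groups shared their range. Its log2 difference was -0.12 (standard error 0.16, adjusted p = 0.66), and its other 2 probe sets gave -0.34 and -0.18.

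Of the 5 eraser probe sets, 4 of which are of Tet1, 4 had values above 0 and none was called. On Tet1 1429448_s_at the lowest, median and highest signals were 102, 137 and 181 in handled mice with RNA from columns, against 56.5, 96.9 and 153 in non-handled mice. With Trizol they were 248, 359.6, 342 and 278 in handled mice, against 228, 224, 212 and 301 in non-handled mice. All 7 and all 4 handled mice lay above the non-handled median of their set, and the groups overlapped in both. Limma gave a log2 difference of 0.41 (standard error 0.17, 95% interval 0.06 to 0.75, adjusted p = 0.11), with 0.43 for columns alone and 0.35 for Trizol alone. With quantile normalization it was 0.65 and with a common mean and variance 0.64, each at an adjusted p of 0.023, where 6.47% and 7.94% of all probe sets were called. It was the 1 member called under these scalings.

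Tet1 1455425_at, the brightest probe set of Tet1, had lowest, median and highest signals of 172, 225 and 274 in handled mice with RNA from columns, against 111, 202 and 283 in non-handled mice. With Trizol they were 549.9, 545, 509 and 592 in handled mice, against 394, 563, 542 and 412 in non-handled mice. With columns 6 of 7 handled mice and with Trizol all 4 lay above the non-handled median, and the groups overlapped. The log2 difference was 0.21 (adjusted p = 0.30), and 1419896_at and 1419897_at gave -0.03 and 0.46.

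Tet3, the Tet enzyme known to act on the sperm-derived genome of the mouse zygote and also present in neurons, was measured by 1 probe set, 1439324_at. Its lowest, median and highest signals were 33.8, 96.3 and 188 in handled mice with RNA from columns, against 18.7, 93.2 and 125.5 in non-handled mice. With Trizol they were 29.8, 93.8, 62.4 and 104 in handled mice, against 55.7, 83.6, 36.6 and 85.7 in non-handled mice. The highest mouse of each set was a handled one, and the groups overlapped. The log2 difference was 0.28 (standard error 0.32, 95% interval -0.36 to 0.93, adjusted p = 0.60). Its size depended on single mice and on scaling, with 0.13 without the non-handled mouse NH170, 0.45 without the handled mouse H108 and 0.56 with quantile normalization.

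Within each extraction method, the handled and non-handled mice overlapped on all 26 probe sets with columns, where 1.63% of all probe sets did not overlap. With Trizol they overlapped on 24, and 3.85% of all probe sets did not overlap. The 2 exceptions were both dim. Tet1 1419897_at had 103, 69.9, 133 and 61.0 in handled mice, against 46.1, 59.1, 24.8 and 7.99 in non-handled mice. Mbd1 1453678_at had 59.9, 82.5, 72.3 and 39.7 in handled mice, against 91.2, 105, 93.3 and 111 in non-handled mice. The first lay wholly above and the second wholly below the non-handled mice, and neither was called. With columns alone, 2 of 26 were called, Dnmt3a 1423063_at and Mbd1 1437061_at, both higher in handled mice, against 12% of all probe sets, 4.36% higher and 7.65% lower. With Trizol alone 0 of 26 were called by limma, as were 0% of all probe sets, and 1 of 26 was under an unadjusted p of 0.05, against 6.37% of all. The interaction of handling with extraction was called for 0 of 26, against 0.0511% of all probe sets, and was under an unadjusted p of 0.05 for 4 of 26, against 7.47%.

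More members differed with extraction than with handling, as did more of all probe sets. With handling held constant, 13 of 26 probe sets were called between RNA from columns and RNA from Trizol, 3 higher and 10 lower with columns, against 39.8% of all probe sets, 16.5% higher and 23.3% lower. With only the upper 50% by mean signal tested, 11 of 15 members were called, against 13878 of 22518 probe sets. The arrays of the 2 methods did not overlap at all for 8 of 26, 1 above and 7 below with columns, where 11.5% of all probe sets did not overlap. The median log2 difference was -0.68 for members and -0.16 for all probe sets. With quantile normalization the counts were 5 higher and 7 lower and with a common mean and variance 5 higher and 8 lower, against 41.8% and 41.4% of all probe sets called, and these scalings moved the median of all probe sets by 0.32. The share of extraction calls that were higher with columns was 57.1% and 57.7% under them, against 41.4% without.

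**Figure D4:**
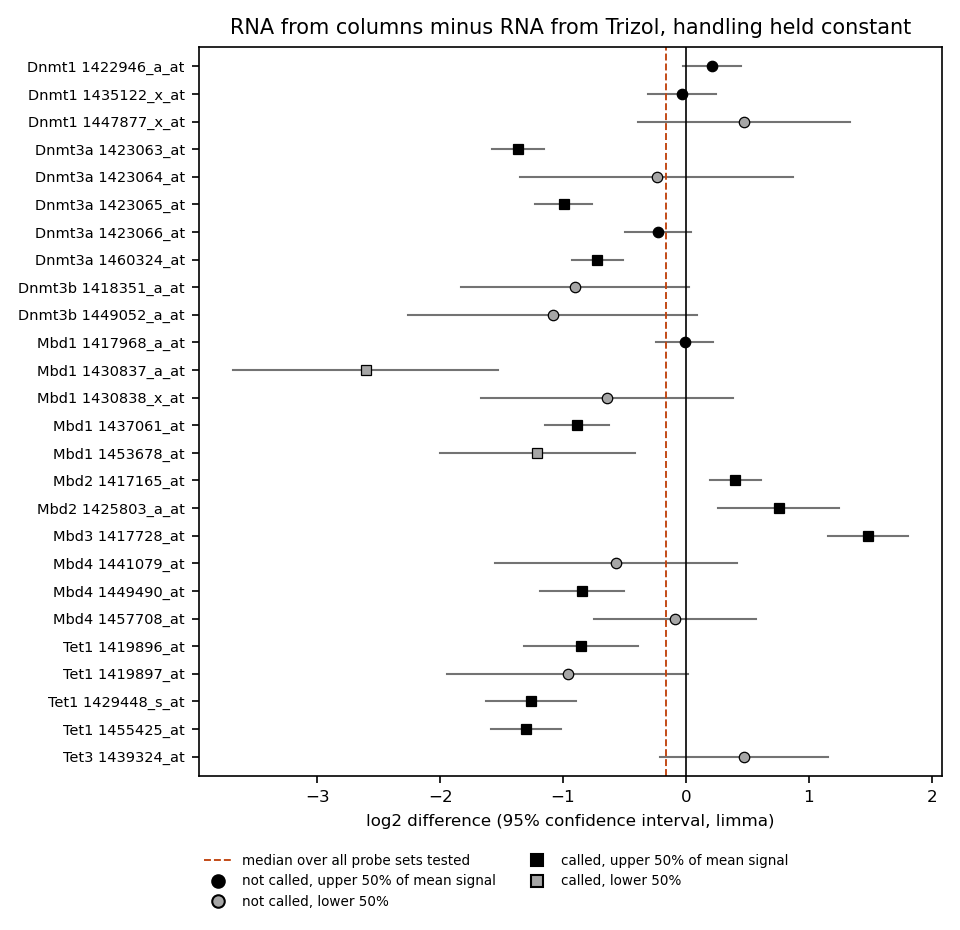
Difference in log2 signal between RNA from columns and RNA from Trizol (x axis) for each of the 26 member probe sets, with handling held constant. Points are limma estimates and lines their 95% confidence intervals, squares were called and circles were not, dark symbols mark the upper 50% by mean signal, and the dashed line is the median over all probe sets, -0.16. Of the called probe sets, that of Mbd3 and both of Mbd2 lie to the right of 0, and those of Dnmt3a, Mbd1, Mbd4 and Tet1 lie to the left.

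Of the probe sets of Dnmt3a, Tet1, Mbd1 and Mbd4, 10 were called lower with columns, although not every probe set of these genes was called. Dnmt3a 1423063_at had a range of 355 to 863 with columns, against 1335 to 1838 with Trizol, a log2 difference of -1.37 (standard error 0.10, adjusted p = 7.7e-13), and no column array reached the lowest Trizol array. Its probe sets 1423065_at and 1460324_at fell by 0.99 and 0.72 on the log2 scale, and 1423066_at and the dim 1423064_at gave -0.23 and -0.24 and were not called. Tet1 1455425_at had 111 to 283 with columns, against 394 to 592 with Trizol, a log2 difference of -1.30 (adjusted p = 1.8e-09). These ranges did not meet either. Tet1 1429448_s_at and 1419896_at fell by 1.26 and 0.85, and the dim 1419897_at gave -0.96 and was not called. Mbd1 1437061_at had 278 to 682 with columns, against 726 to 1024 with Trizol, a log2 difference of -0.89 (adjusted p = 4.9e-07), while Mbd1 1417968_a_at, also bright, gave -0.01 and was not called. Bright probe sets of 1 gene thus differed in their estimates, from -1.37 to -0.23 for Dnmt3a, and these differences were not tested. Mbd1 1430837_a_at and 1453678_at were called lower too, and since both lay above the array median in no mouse, no size is given for them. Mbd4 1449490_at had 73.1 to 144.2 with columns, against 171 to 218 with Trizol, a log2 difference of -0.84 (adjusted p = 8.9e-05), while its other 2 probe sets gave -0.57 (adjusted p = 0.39) and -0.09 (adjusted p = 0.86).

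Mbd3 and Mbd2 were higher with columns. Mbd3 had 364 to 762 with columns, against 113.4 to 331 with Trizol, with no overlap and a log2 difference of 1.48 (standard error 0.16, adjusted p = 1.9e-09). Mbd2 1417165_at and 1425803_a_at had log2 differences of 0.40 (adjusted p = 0.0017) and 0.76 (adjusted p = 0.011), with ranges that overlapped. None of the probe sets of Dnmt1, Dnmt3b and Tet3 was called for extraction here, with adjusted p from 0.12 to 0.89, although quantile normalization called Dnmt1 1422946_a_at and Tet3.

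The 3' to 5' ratio of Gapdh and some lists of cell type markers moved with extraction too. The log2 3' to 5' ratio of Gapdh ran from 1.04 to 1.71 with columns, against 1.49 to 1.95 with Trizol. That of Actb was 1.54 to 3.24 and a median of 1.75 with columns, against 1.62 to 2.12 and a median of 1.85 with Trizol. With the ratios of Gapdh and Actb as covariates, 8 of 26 members were called for extraction, 1 higher and 7 lower, against 25.1% of all probe sets, and the calls of both probe sets of Mbd2, Mbd1 1430837_a_at, Mbd4 1449490_at and Tet1 1419896_at were lost. All 6 measured oligodendrocyte markers, 6 of 6 astrocyte markers, 6 of 7 microglia markers and 6 of 7 CA1 pyramidal markers were higher with columns. Over all genes counted with 1 probe set each, 23.7% were. The markers of these lists all lie in the upper 50% by mean signal, where 7303 of 22518 probe sets were called higher with columns. The CA1 marker Man1a was lower (-0.30, adjusted p = 0.0030). Other lists held fewer calls, with 3 of 6 interneuron markers, 1 of 6 CA3, 1 of 6 endothelial and 1 of 6 dividing cell markers higher with columns, 1 of 6 dentate granule, 1 of 6 CA3 and 1 of 6 endothelial markers lower, and none of 5 choroid plexus markers called. The summed microglia signal was 16982 to 29290 with columns, against 8038 to 11839 with Trizol, without overlap. Csf1r weighs most in this sum, with median signals of 14752 with columns and 5559 with Trizol. Summed signal was 57931 to 100564 against 42783 to 66113 for oligodendrocyte, 34377 to 50625 against 24102 to 35212 for astrocyte and 36116 to 53917 against 28288 to 39330 for CA1 pyramidal markers, columns against Trizol. Mbp weighs most in the oligodendrocyte sum, Gja1 in the astrocyte sum and Wfs1 in the CA1 sum. Their median signals were 35310, 19039 and 11941 over all mice. The part of these ratios and markers in the member values was not tested. For handling, the markers called were Gad1, Gad2, Aqp4, P2ry12 and Elavl2, which were higher in handled mice, and Pvalb, Camk2a, Cldn5, Kdr, Folr1 and Clic6, which were lower. Of all genes counted with 1 probe set each, 4.47% were called higher and 9.7% lower in handled mice. By list, the calls were 3 of 6 interneuron, 2 of 6 endothelial and 2 of 5 choroid plexus markers. Lists with 1 call were astrocyte and CA3 (of 6 each) and microglia and CA1 pyramidal (of 7 each). The interneuron markers did not share a direction, since Slc32a1 gave 0.11, Sst -0.11 and Vip -0.04, none of them called. Their summed signal was 13559 to 20231 in handled mice, against 11740 to 17334 in non-handled mice. Gad1 and Gad2 weigh most in this sum, with median signals of 7309 and 3045 over all mice. The part of the markers in the member values was not tested. The 6 measured markers of dividing cells held no call for handling, and no marker was at 0 in any group.

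Of 42 measured partners of the pathway, counted with 1 probe set per gene, 2 were called higher and 2 lower in handled mice, against 4.47% higher and 9.7% lower, 14.2% in all, over 18193 genes. Of 9 measured genes of 10 among other factors that write, read, erase or maintain the mark, Zbtb33, which encodes the methyl-CpG binder Kaiso, was higher in handled mice, with a mean signal of 3019 ± 572 in 11 handled mice, against 2568 ± 380.0 in 14 non-handled mice (SD), and a log2 difference of 0.25 (adjusted p = 0.021). Of 13 measured genes of 14 in base excision repair and demethylation, Smug1, a uracil glycosylase, was lower, with a mean signal of 667 ± 70.8 in handled mice, against 844 ± 112.7 in non-handled mice (SD), and a difference of -0.33 (adjusted p = 0.011). All 11 NuRD subunits were measured. The deacetylase Hdac2 was higher at 0.23 (adjusted p = 0.029) and the histone binder Rbbp4 lower at -0.33 (adjusted p = 0.029). The probe set used for Hdac2 has a name ending in s_at and that for Rbbp4 in x_at. Their probes can therefore also match other transcripts, and each call rests on that probe set alone. None of 9 measured genes of 11 in the methyl donor cycle was called. The median log2 difference of these lists ran from -0.09 to 0.01. For extraction, the calls were 2 higher and 3 lower, 2 and 2, 6 and 1, and 4 and 2 in these lists in the same order, 22 of 42 in all, against 41.2% of all genes, 23.7% higher and 17.5% lower. Tet2, the third Tet enzyme, fell by 3.198 on the log2 scale with columns (adjusted p = 3.3e-14), and its difference for handling was 0.12 (adjusted p = 0.73).

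Beyond handling and extraction, probe sets of the same gene were weakly related from mouse to mouse. After the means of handling and extraction were removed, Pearson's r over 25 mice was above 0 for 18 and below 0 for 16 of the 34 pairs of probe sets of a gene, with a median of 0.12. Where both were in the upper 50% by mean signal, 5 of 12 pairs were above 0. The pair of Mbd2 had the highest value, 0.54, and the 4 bright probe sets of Dnmt3a had values from -0.28 to 0.19. Between genes, by the brightest probe set, Dnmt3a and Mbd1 had an r of 0.57, Mbd2 and Mbd3 0.54, and Dnmt3b and Mbd1 -0.44, and the median of the 36 pairs was -0.01. All points share arrays and their scaling, so these values are descriptions. Among about 11514 genes with bright probe sets, those most like Dnmt3a 1423063_at were Ap4b1 (r = 0.85), Nap1l3 (0.84) and Gphn (0.82). For Dnmt1 1435122_x_at they were Edc4 (0.82), Pdcd7 (0.77) and Tbc1d20 (0.75). For Tet3 they were Tnfrsf4 (0.70), 4930523C07Rik (0.69) and Csnk2a1 (0.66). The highest of so many values over 25 mice can be large by chance, and no p was computed. The Tet3 probe set was also dim, above the array median in 7 mice, and the mouse NH170 stood apart on it.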

How the data were processed

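CA1 tissue of 25 mice was hybridized to Mouse 430_2.0 arrays, 1 for each mouse. The deposited intensity values are linear MAS 5.0 signal that the authors computed in Affymetrix Expression Console. Arrays carry a single scaling factor each and their distributions were not equalized, so shifts between arrays remain in the differences. No array had a repeat, and precision comes from the number of mice. For handling it may be lower than that number gives, because whole litters were handled.

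Signal was log2 transformed without offset. Of 45101 probe sets, 64 controls were left out. Gene names came from the platform annotation, with symbols updated through gene identifiers. Probe sets were tested two-sided with limma 3.58.1 in R 4.3.3 (trended prior, handling and extraction as terms, Benjamini-Hochberg adjustment over 45037 probe sets, called under 0.05), after the procedure was tested on simulated data. Lists used 1 probe set per gene by highest mean signal. Summaries used Python 3.11.15, pandas 2.3.3 and scipy 1.17.1, and figures matplotlib 3.10.9. The members, lists and tests were chosen with earlier results of these data known.

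Every member probe set was counted, and values were given by mouse for Trizol, and as lowest, median and highest for columns, for the 2 probe sets with the smallest p for handling in each role and the brightest of each gene. Dnmt3a 1423065_at, Tet1 1419897_at and Mbd1 1453678_at were added after their values were seen. Alternatives were quantile normalization, an offset of 32 before the log, a common mean and variance, only the upper 50% by mean signal, no trend, array weights, 3' to 5' ratios as covariates, no extraction term, each extraction method alone, and each mouse left out. Promoter windows of Mbd1 and Mbd2 were not analysed here.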

Additional observations from a re-analysis of the deposited data

Results flagged for a closer look

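In 5 of 104 sets of mice, formed by member probe set, handling and extraction, the highest or lowest mouse stood apart from the rest of its set by Dixon's 95% critical value, and chance flags about 1 in 20 such sets. On Dnmt3a 1460324_at, the non-handled mouse NH155 with RNA from columns had a log2 signal of 8.41, against 8.92 to 9.38 in the other 9. On Dnmt3a 1423064_at, the non-handled mouse NH147 with RNA from Trizol had 6.76, against 3.75 to 3.94 in the other 3. On Mbd1 1417968_a_at, the handled mouse H123 with RNA from columns had 8.74, against 9.14 to 9.38 in the other 6. The non-handled mouse NH170 with RNA from columns was lowest on 2 probe sets, with 3.78 on Dnmt1 1447877_x_at, against 5.52 to 7.29 in the others, and 4.23 on Tet3 1439324_at, against 5.58 to 6.97. Of the 5 probe sets, 3 were below the upper 50% by mean signal. None of these 5 probe sets was called for handling under any alternative run.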

How the results depend on the processing

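The count of members called for handling, 0 of 26, became 1 with quantile normalization, 1 with a common mean and variance (Tet1 1429448_s_at in both), 1 among the 15 probe sets in the upper 50% by mean signal, 1 with array weights (Dnmt3a 1423063_at in both) and 2 with columns alone. In the same order, 6.47%, 7.94%, 19.2%, 13.2% and 12% of all probe sets tested were called. The count of members was 0 to 1 when each mouse was left out, and Dnmt3a 1423063_at was the probe set called without NH142, NH167, NH138, NH146, H126 or H130, with differences of 0.24 to 0.33 over all such fits. The count for extraction, 13, became 8 with RNA quality covariates, where 25.1% of all probe sets were called, and was 13 to 14 with a mouse left out. Quantile normalization ended the extraction calls of Mbd1 1453678_at, Mbd4 1449490_at and Tet1 1419896_at. The interaction count was 0 under every alternative run. Of the 26 differences for handling, 11 changed sign with Trizol alone, 4 with columns alone, 8 with quantile normalization and 9 with a common mean and variance. Among the probe sets chosen for display, Trizol alone gave -0.024 for Dnmt3a 1423063_at, -0.16 for Mbd1 1437061_at, 0.15 for Dnmt3a 1423065_at, 0.019 for Mbd2 1417165_at and 0.043 for Mbd3, and columns alone gave -0.14 for Tet1 1419897_at. Mbd3 was 0.044 with quantile normalization, 0.11 with a common mean and variance, 0.0062 with array weights and 0.066 with RNA quality covariates, and ran from -0.078 to 0.073 with a mouse left out. Mbd4 1449490_at was 0.14 with quantile normalization and 0.12 with a common mean and variance, and Dnmt1 1435122_x_at was 0.018 with a common mean and variance. The cause was not tested. Litters could not be modelled. No paired analysis was possible because the groups compared share no mouse numbers.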
